A study of Homo sapiens with 6 samples.

Results

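The genes described are those that sense protein folding stress in the endoplasmic reticulum (ER) and the closest parts of their signalling, in RPMI 8226 cells with reduced HDAC1. They are 10 of the 34500 genes in the data: XBP1, ERN1, ATF6, ATF6B, EIF2AK3, MBTPS1, MBTPS2, HERPUD1, DDIT3 and PPP1R15A. Their transcripts were found by symbol, as those that GENCODE 29 gives to these genes. All 10 were found, with 77 transcripts listed, of which 10 were at 0 in every library. RPMI 8226 is an established human multiple myeloma line, a tumour of antibody-secreting plasma cells. All libraries came from cells transduced with a lentivirus, selected with puromycin for 48 h and grown with 10% serum. In 3 libraries, labelled shLuc, the virus carried a short hairpin RNA against luciferase, which human cells lack. In the other 3, labelled shHDAC1, the hairpin was directed at HDAC1, a histone deacetylase, and the labels name no second hairpin and no rescue. The series describes triplicate transductions and does not call them separate cultures, so a p-value reflects only how far these libraries spread.

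The unfolded protein response starts from membrane proteins of the ER. IRE1, encoded by ERN1, is a kinase and endonuclease that cuts a short intron out of the XBP1 mRNA in the cytosol. The ligated mRNA is read in another frame and encodes XBP1s, the active transcription factor, which plasma cells need to build their secretory apparatus. ATF6 and ATF6B travel to the Golgi, where the site-1 protease (MBTPS1) and the site-2 protease (MBTPS2) release their transcription factor part. PERK, encoded by EIF2AK3, phosphorylates eIF2 alpha, which slows translation while ATF4 is translated more. DDIT3 encodes CHOP, a transcription factor of prolonged stress, PPP1R15A encodes GADD34, which brings a phosphatase back to eIF2 alpha, and HERPUD1 encodes a membrane protein of ER-associated degradation that rises during this response.

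The 26 bases that IRE1 removes set the XBP1 transcripts apart and are shown first, since the split of XBP1 into its forms rests on them. In the 2 lines, written 5′ to 3′ from the GENCODE 29 transcripts, the intron is in capitals, placed as annotated for XBP1-207, and 20 bases of exon on each side are in lower case.
XBP1-201 with the intron: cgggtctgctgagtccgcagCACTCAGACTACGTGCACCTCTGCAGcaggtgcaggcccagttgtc
XBP1-202 and XBP1-207 without it: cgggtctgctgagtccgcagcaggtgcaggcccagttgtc
XBP1 lies on the minus strand of chromosome 22, from 28794555 to 28800597 in GRCh38, the build of all positions given. XBP1-202 is annotated with the gap at chr22:28796122-28796147 and XBP1-207 with it at chr22:28796124-28796149. Both give the same spliced sequence, because the bases at the 2 ends of the intron repeat, and 7 positions of the gap leave the same letters behind. Of the 7 annotated transcripts, XBP1-202 (1131 nucleotides) and XBP1-207 (1794 nucleotides) skip the intron and code for 376 amino acids. XBP1-201 (1850 nucleotides) keeps it and codes for 261. XBP1-203, XBP1-204 and XBP1-206 also keep it, and XBP1-205 does not reach it. XBP1-202 holds coding sequence only and lies wholly within XBP1-207. Reads cannot be divided between the 2 by sequence except at the ends, so their values were summed as the spliced form. Apart from the intron, XBP1-207 spans nearly the same bases as XBP1-201. Reads away from the intron therefore do not tell these 2 apart, and the split between spliced and unspliced forms is also an estimate.

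HDAC1 itself was at 90.0, 85.0 and 88.9 TPM with shLuc and at 31.8, 27.0 and 29.2 with shHDAC1, which was 33.3% of the control mean. TPM is the share of a library that a transcript holds after correction for its length. It keeps no number of reads, so the depth is unknown and no counting error can be given. Levels and tests are on sums over the transcripts of a gene. The test was limma on log2(TPM + 1), and a gene was called at a Benjamini-Hochberg adjusted p below 0.05 over the 11857 genes that passed a filter on low values. All fold changes are differences of log2(TPM + 1), shHDAC1 against shLuc, ± SE from that fit, and they understate the change of low genes. The median over all genes tested was 0.07, and it was -0.03 with each library centred on its median and -0.01 after quantile normalization. Of 10 plasma cell markers 8 were at 1 TPM or more on average, and their summed level was 7864 to 8654 TPM with shLuc and 5755 to 7014 TPM with shHDAC1. Markers of T cells (5 genes, 2.08 to 2.42 against 3.25 to 4.25 TPM), myeloid cells (5 genes, 2.48 to 3.02 against 6.49 to 8.995) and fibroblasts (5 genes, 0.918 to 1.98 against 0.614 to 2.82) stayed low. At least 1 gene of each of these 3 lists was at 0 in every library. The highest single value was 6598 TPM among the plasma cell markers and 8.05 TPM among the myeloid markers. A single gene can thus hold most of such a sum, and the sums do not show how the other markers moved. The part of the marker differences in the results was not tested. In bulk RNA, fewer cells with a transcript and less of it per cell cannot be told apart.

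All 10 genes passed the filter. ERN1, XBP1 and HERPUD1 were lower with shHDAC1, DDIT3 was higher, and the other 6 were not called. The background was a call of lower for 10.3% of all genes tested and a call of higher for 16.9%. Groups that did not overlap, with shHDAC1 the lower, were found for 16.0% of all genes tested and for the 3 of 10 called lower here. The scaling moved the direction of calls over all genes: 2007 were higher and 1219 lower, against 1336 and 1828 after median centring and 1412 and 1591 after quantile normalization. Under the 15 alternatives, between 3 and 5 of the 10 genes were called.

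By level, HERPUD1 (395 TPM) and XBP1 (363 TPM) led in the shLuc libraries, followed by MBTPS1 (69.2), ATF6 (37.7), ERN1 (32.3), EIF2AK3 (22.8), MBTPS2 (13.2), ATF6B (10.6), DDIT3 (9.61) and PPP1R15A (3.65). The HERPUD1 libraries all lay above the XBP1 libraries with shLuc and all below them with shHDAC1, so the first place changed. Neighbours whose libraries overlapped with shLuc were ATF6 with ERN1, and ATF6B with DDIT3. With shHDAC1, DDIT3 (15.2 TPM) moved from the ninth place to the seventh and overlapped both MBTPS2 (12.2 to 15.4) and EIF2AK3 (15.95 to 21.7).

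ERN1, the IRE1 sensor (chromosome 17, 64039142 to 64130819, minus strand), had 30.4, 34.6 and 31.9 TPM with shLuc and 22.7, 21.2 and 21.7 with shHDAC1. All 3 shHDAC1 libraries were below all 3 controls, and their spread was small. Its mean of 21.9 ± 0.75 TPM was 67.7% of the control mean of 32.3 ± 2.14 TPM (SD, n = 3). The log2 fold change was -0.54 ± 0.09 (limma adjusted p = 0.00195), and ERN1 was called under all 15 alternatives. ERN1 was also lower relative to ATF6, a sensor that was not called. Its ratio to ATF6 was 0.781, 0.865 and 0.940 with shLuc and 0.661, 0.5997 and 0.606 with shHDAC1, without overlap (p = 0.1 by exact two-sided permutation, the least that 3 against 3 can give). For the ratio to EIF2AK3 the groups overlapped, at 1.45 ± 0.25 and 1.25 ± 0.23 (SD, n = 3, exact permutation p = 0.4). These ratios were chosen after the values were seen.

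Of the 8 ERN1 transcripts, the protein-coding ERN1-201 and ERN1-208 held most of the level. ERN1-201 had 15.7, 17.0 and 17.2 TPM with shLuc and 11.3, 8.89 and 10.1 with shHDAC1, with no overlap. In the fit of 41206 transcripts its log2 fold change was -0.67 ± 0.12 (limma adjusted p = 0.0449). It was called under 6 of 14 alternatives, and without any 1 of the 6 libraries the adjusted p lay between 0.0823 and 0.144. ERN1-208 had 10.1, 10.0 and 9.82 TPM with shLuc against 6.29, 6.79 and 6.67 (-0.54 ± 0.11, limma adjusted p = 0.0579, not called). The 2 coding transcripts together went from 26.6 ± 0.70 to 16.7 ± 0.97 TPM (SD, n = 3), 62.7% of the control. The 5 transcripts annotated with a retained intron summed to 5.73 ± 1.64 and 5.20 ± 0.31 TPM, and these groups overlapped.

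XBP1, the target of IRE1 (ENSG00000100219.16), had 357, 376 and 355 TPM over all its transcripts with shLuc and 325, 312 and 304 with shHDAC1. The groups did not overlap, and the mean went from 363 ± 11.9 to 314 ± 10.96 TPM (SD, n = 3), 86.5% of the control. The log2 fold change was -0.21 ± 0.06 (95% interval -0.33 to -0.08, limma adjusted p = 0.0232). The call was lost after quantile normalization (-0.13, adjusted p = 0.121) and without shLuc library 1 (0.0638), shLuc library 2 (0.0679) or shHDAC1 library 3 (0.0852), always in the same direction.

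Split by form, the estimate of spliced XBP1 was lower with shHDAC1 but was not called in the transcript fit, and the unspliced groups overlapped. XBP1-202 and XBP1-207 together had 101, 114 and 91.6 TPM with shLuc and 44.5, 81.0 and 56.6 with shHDAC1, so every shHDAC1 library was below every control. The mean went from 102 ± 11.3 to 60.7 ± 18.6 TPM (SD, n = 3), 59.3% of the control, with an exact two-sided permutation p of 0.1. The unspliced transcripts summed to 253, 256 and 258 TPM with shLuc and to 277, 229 and 241 with shHDAC1. These groups overlapped, with means of 255 ± 2.53 and 249.1 ± 24.9 TPM (exact permutation p = 0.7). The shHDAC1 libraries differed more among themselves than the controls in both forms. shHDAC1 library 1 had the least spliced and the most unspliced XBP1, and shHDAC1 library 2 the reverse.

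As a share of both forms, spliced XBP1 was 28.6%, 30.9% and 26.2% with shLuc and 13.8%, 26.1% and 19.0% with shHDAC1. The means were 28.6% ± 2.32 and 19.7% ± 6.15 (SD, n = 3), a difference of -8.92 percentage points (p = 0.1 by exact two-sided permutation, the lowest the design allows). The groups came within a narrow gap of each other, through shHDAC1 library 2, and with all XBP1 transcripts as the denominator they overlapped (exact permutation p = 0.2). Leaving out each library in turn, the difference lay between -12.1 and -6.02 points. Entered into the transcript fit as 2 summed features, an addition made after the data were seen, the spliced form had a log2 fold change of -0.78 ± 0.22 (limma adjusted p = 0.137). The unspliced form had -0.04 ± 0.08 (limma adjusted p = 0.839). Neither was called under any of the 14 alternatives. The spliced form stayed negative in all of them, from -1.01 to -0.58, while the unspliced form changed sign. The difference between the 2 forms was tested only as the share above.

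Single XBP1 transcripts were less steady than their sums. XBP1-207 had 37.8, 65.4 and 25.8 TPM with shLuc and 1.21, 56.3 and 0.0276 with shHDAC1, so its group difference came from 2 libraries. The spliced sum and share rest in part on this unsteady transcript. The XBP1-207 mean went from 43.0 to 19.2 TPM, and the XBP1-202 mean from 59.3 to 41.5 TPM. In shHDAC1 library 1, where XBP1-207 was at 1.21 TPM, XBP1-201 was at its highest (263 TPM). For XBP1-207, the fit gave the following. The log2 fold change of XBP1-207 was -3.02 ± 1.498 (limma adjusted p = 0.36), and without shHDAC1 library 2 it was -4.76 (adjusted p = 0.0413). XBP1-202 had 63.4, 48.8 and 65.8 TPM with shLuc and 43.3, 24.7 and 56.5 with shHDAC1 (-0.57 ± 0.31, limma adjusted p = 0.398). In shLuc library 2 and shHDAC1 library 2, XBP1-202 was lowest and XBP1-207 highest of its group. XBP1-201, the main unspliced transcript, had 242 ± 2.51 TPM in the controls and 237 ± 23.3 TPM with shHDAC1 (SD, n = 3), and 0 of 6 XBP1 transcripts tested were called. The 2 XBP1 transcripts annotated with a retained intron summed to 11.4 ± 1.40 TPM and 8.91 ± 2.13 TPM.

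Of 13 genes around IRE1 and the ligation of XBP1, 12 were tested, 1 was called higher and 2 lower, against 16.9% and 10.3% of all genes tested, so the count was near the background. The same shares are the background of each list count that follows. Their median was -0.04, a value that changed sign between alternatives (-0.14 to 0.05). RTCB, the ligase that joins the XBP1 exons, rose from 126 ± 5.52 to 154 ± 11.1 TPM (SD, n = 3; log2 fold change 0.29 ± 0.07, limma adjusted p = 0.0161). Its call was lost under 4 of 15 alternatives, with a highest adjusted p of 0.0762. RTRAF, a subunit of the same ligase complex, fell by 0.45 ± 0.09 (limma adjusted p = 0.00552). PDIA6, a disulfide isomerase that acts on IRE1, went from 764 ± 21.7 to 578 ± 7.96 TPM (-0.40 ± 0.05). The ligase subunits DDX1 (-0.03) and FAM98B (-0.05) were not called.

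Genes known to depend on XBP1 were called in 1 direction only. Of 20 genes of this list, 9 were lower and 0 higher, with a median of -0.24 against 0.07 over all genes tested. Over the alternatives, 7 to 13 were lower and 0 higher. SSR1, which helps nascent chains through the translocon, went from 932 ± 50.03 to 554 ± 48.7 TPM (SD, n = 3; -0.75 ± 0.07, limma adjusted p = 0.000134). DNAJB9, an ER cochaperone that holds IRE1 inactive, had 30.8, 35.4 and 34.1 TPM with shLuc and 20.004, 24.0 and 19.2 with shHDAC1 (-0.65 ± 0.11, limma adjusted p = 0.00224). EDEM1, which hands misfolded glycoproteins to degradation, and SEC61A1, the channel of the translocon, also fell (-0.39 ± 0.08 and -0.28 ± 0.05). Among those not called, SERP1 had 0.03 ± 0.05 and EDEM2 -0.03 ± 0.09. KDELR3, a receptor that returns ER proteins from the Golgi, stood against the rest at 0.542, 0.673 and 0.960 TPM with shLuc and 1.64, 1.55 and 1.06 with shHDAC1, and passed the filter only through the shHDAC1 libraries. EDEM1, SEC61A1, SERP1, EDEM2 and KDELR3 were picked after their values were seen.

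IRE1 can also cut other mRNAs, and few of the 7 listed as such substrates were present in these cells. The 3 that passed the filter were BLOC1S1, HGSNAT and TAPBP, and SCARA3 was listed at 0 in every library. TAPBP, which loads peptides on MHC class I, had 3.95, 3.68 and 4.002 TPM with shLuc and 7.85, 7.65 and 5.23 with shHDAC1 (0.68 ± 0.16, limma adjusted p = 0.0125, lost with no filter on low values at 0.0615). TAPBP also lies in the major histocompatibility complex, and only transcripts matched to its 1 gene model were summed. Whether listed transcripts without a match belong to TAPBP could not be checked, so its level may be partial and is uncertain. HGSNAT, a lysosomal acetyltransferase, had 3.85 ± 0.22 and 5.52 ± 0.78 TPM (SD, n = 3; 0.42 ± 0.14, limma adjusted p = 0.0471) and was called under 5 of 14 alternatives. BLOC1S1, the substrate most often used as a readout, had 101 ± 4.29 and 113 ± 6.22 TPM. Its groups did not overlap, and it was not called (0.16 ± 0.07, limma adjusted p = 0.125).

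ATF6 had 38.9, 40.1 and 34.0 TPM with shLuc and 34.4, 35.4 and 35.8 with shHDAC1, and the groups overlapped. Its log2 fold change was -0.09 ± 0.09 with a 95% interval from -0.29 to 0.10 (limma adjusted p = 0.468). The larger part of the ATF6 level, 56.6% with shLuc and 54.1% with shHDAC1, was assigned to ATF6-202, a transcript annotated without a coding sequence. The coding ATF6-201 had 16.3 ± 0.81 and 16.2 ± 0.77 TPM (SD, n = 3; -0.01 ± 0.09). ATF6B had 11.9, 9.88 and 10.1 TPM with shLuc and 12.7, 10.6 and 9.75 with shHDAC1. Its log2 fold change of 0.04 ± 0.13 (95% interval -0.25 to 0.34) turned negative after median centring (-0.05) and quantile normalization (-0.09). ATF6B lies at 32115264 to 32128253 of chromosome 6, in the major histocompatibility complex, and only transcripts matched to its 1 gene model were summed. Whether any of the 14020 listed transcripts without a match belong to ATF6B could not be checked, so its level may be partial and is uncertain.

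Neither protease gene was called. MBTPS1, the site-1 protease, had 69.3, 61.9 and 76.4 TPM with shLuc and 65.9, 59.6 and 55.9 with shHDAC1, with overlap (-0.19 ± 0.10, 95% interval -0.41 to 0.03, limma adjusted p = 0.175). With median centring it was called (-0.29, adjusted p = 0.0437). Its transcripts with a retained intron, 6 in number, summed to 4.92, 2.58 and 4.91 TPM with shLuc and to 2.25, 2.50 and 2.16 with shHDAC1. The groups did not overlap, but by a narrow margin, and this sum was not tested. Among these transcripts only MBTPS1-207 had a mean of 1 TPM or more. MBTPS2, the site-2 protease, had 12.5, 13.8 and 13.3 TPM and 15.4, 14.9 and 12.2 TPM (0.09 ± 0.12, 95% interval -0.17 to 0.35). Its sign turned after median centring (-0.01) and quantile normalization (-0.04). MBTPS2 shares 1093 exonic bases with YY2, a gene on the same strand at 5.13 to 7.01 TPM in these libraries, so its level is uncertain.

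Genes that ATF6 activates were mostly lower, while the ATF6 mRNA was not called. The cleavage that releases active ATF6 is not measured by these RNA data. ATF6 and XBP1 act on ER chaperone genes through a shared element, so this list does not read out ATF6 alone. Of 11 listed and tested, 7 were lower and 0 higher, with a median of -0.40 against 0.07 over all genes tested. Under the alternatives 7 or 8 were lower and at most 1 higher. CALR, a lectin chaperone, had 1324 ± 46.9 TPM in the controls and 940.5 ± 30.2 TPM with shHDAC1 (SD, n = 3; -0.49 ± 0.05, limma adjusted p = 0.00021). HSP90B1, the ER form of HSP90, went from 796 ± 68.0 to 521 ± 10.7 TPM (-0.61 ± 0.07, limma adjusted p = 0.000251). HSPA5, the chaperone BiP that keeps all 3 kinds of sensor inactive, went from 525, 552 and 518 TPM to 420, 410 and 406 (-0.37 ± 0.05, limma adjusted p = 0.00102). DERL3, a membrane protein of ER-associated degradation, fell by 0.76 ± 0.09. SYVN1 (-0.05 ± 0.09) and SEL1L (-0.24 ± 0.16), the ubiquitin ligase of that pathway and its partner, were not called. MANF had 14.0, 5.97 and 8.33 TPM against 12.98, 15.96 and 13.2 (0.59 ± 0.24, limma adjusted p = 0.098). HSPA5, DERL3, SYVN1, SEL1L and MANF were picked after their values were seen.

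Of the other substrates of the 2 proteases and the partners of the sterol sensor, 9 of 11 were tested, 3 were lower and 1 higher (median -0.13, between -0.22 and -0.07 under the alternatives). INSIG1, which retains the sterol regulatory proteins in the ER, had 201, 209 and 205 TPM with shLuc and 89.6, 86.0 and 83.1 with shHDAC1 (-1.24 ± 0.06, limma adjusted p = 1.4e-06). GNPTAB, a Golgi enzyme cut by the site-1 protease, fell by 0.43 ± 0.08. CREB3L2, an ER membrane transcription factor of the same kind as ATF6, rose from 12.5 ± 1.08 to 22.3 ± 2.06 TPM (SD, n = 3; 0.79 ± 0.11, limma adjusted p = 0.000934). The precursors SREBF1 (-0.11) and SREBF2 (-0.13) were not called.

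EIF2AK3, the sensor PERK, had 20.4, 20.7 and 27.3 TPM with shLuc and 16.3, 21.7 and 15.95 with shHDAC1. The groups overlapped because shHDAC1 library 2 lay within the control range. Its log2 fold change was -0.33 ± 0.15 (95% interval -0.66 to 0.01, limma adjusted p = 0.136), and without that library it was called (-0.46, adjusted p = 0.0395). The coding transcripts summed to 13.6 ± 0.93 TPM in the controls and 12.3 ± 1.09 TPM with shHDAC1 (SD, n = 3). The 2 transcripts without a coding sequence had 7.64, 6.16 and 12.7 TPM against 2.80, 9.69 and 2.33, and shHDAC1 library 2 was again the one within the control range. On coding transcripts alone the log2 fold change of EIF2AK3 was -0.14 ± 0.10 (limma adjusted p = 0.345). EIF2AK3 overlaps an antisense gene in 781 exonic bases, and whether the counting used strand is not given in the sources used here.

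Of 16 kinases, subunits and phosphatases of eIF2, 4 were higher and 3 lower, against 16.9% and 10.3% of all genes tested, and under the alternatives 2 to 4 were higher. Their median of 0.09 lay between -0.01 and 0.12 under the alternatives. EIF2AK2, the kinase PKR of the response to double-stranded RNA, had 41.5, 49.5 and 45.1 TPM with shLuc and 137, 122 and 129 with shHDAC1 (1.49 ± 0.08, limma adjusted p = 3.53e-06). EIF2S2, the beta subunit of eIF2, rose by 0.80 ± 0.08, while EIF2S1, the alpha subunit that PERK phosphorylates, fell by 0.50 ± 0.08. PPP1CC, a catalytic subunit of the phosphatase, fell by 0.62 ± 0.07. PPP1R15B, the constitutive relative of GADD34, went from 44.4 ± 3.34 to 32.9 ± 2.34 TPM (SD, n = 3; -0.42 ± 0.09, limma adjusted p = 0.0086) and was picked after its values were seen. PPP1R15A, which encodes GADD34, had 3.30, 3.89 and 3.75 TPM with shLuc and 4.63, 3.69 and 4.08 with shHDAC1, the lowest level of the 10 genes. Its log2 fold change was 0.14 ± 0.14 (95% interval -0.17 to 0.45, limma adjusted p = 0.478), with the opposite sign after quantile normalization (-0.02).

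**Figure D1:**
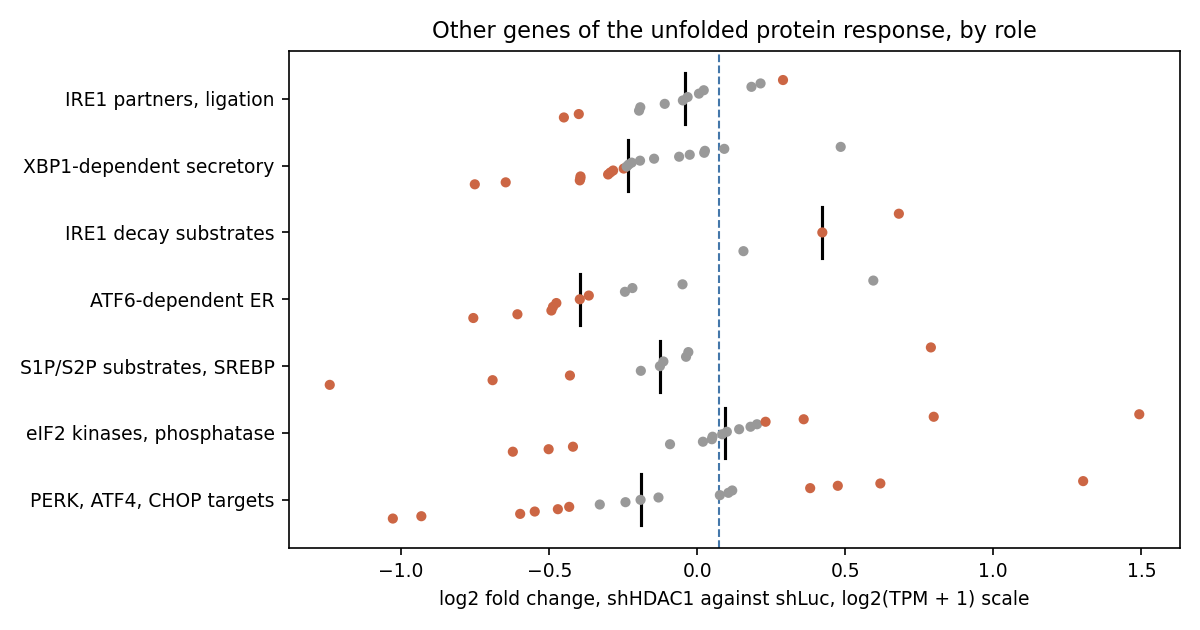
Log2 fold change of each tested gene of the 7 lists, shHDAC1 against shLuc, on the log2(TPM + 1) scale. Orange points were called and grey points were not, black bars are list medians, and the dashed line is the median over all genes tested (0.07). The lists that depend on XBP1 (median -0.24) and on ATF6 (-0.40) hold 0 orange points to the right of 0, while the eIF2 list and the list of PERK, ATF4 and CHOP targets hold orange points on both sides.

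DDIT3, which encodes CHOP, was the gene of the 10 that rose. It had 9.08, 10.8 and 8.97 TPM with shLuc and 15.2, 16.4 and 14.1 with shHDAC1, so the groups were well apart. The mean went from 9.61 ± 1.03 to 15.2 ± 1.11 TPM (SD, n = 3), 159% of the control. The log2 fold change was 0.62 ± 0.11 (95% interval 0.36 to 0.87, limma adjusted p = 0.00433), and DDIT3 was called under all 15 alternatives. It lies at 57516588 to 57521737 of chromosome 12 on the minus strand. There 355 of its exonic bases overlap MARS on the other strand, 58 overlap MBD6, and 105 overlap the gene AC022506.1 on its own strand, so its level is uncertain. MARS, which encodes a tRNA synthetase, was far more abundant and moved the other way, at 242 ± 8.95 TPM in the controls and 206 ± 3.94 TPM with shHDAC1 (SD, n = 3; -0.23 ± 0.06, limma adjusted p = 0.0164). The part of this overlap in the DDIT3 level was not tested.

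Among the DDIT3 transcripts, DDIT3-204 held most of the level, with 5.27, 7.34 and 7.76 TPM with shLuc and 8.71, 9.58 and 11.5 with shHDAC1 (0.50 ± 0.18, limma adjusted p = 0.228). DDIT3-202 was at 0.000323 TPM or less with shLuc and at 2.67, 2.33 and 1.03 TPM with shHDAC1. It passed the filter on low values only through the shHDAC1 libraries, so it had to differ, and its call as higher is a description with no weight as a test. The call was lost under all 10 alternatives in which DDIT3-202 was tested. DDIT3-205 overlapped between groups (1.83 ± 1.19 and 2.04 ± 0.99 TPM, SD, n = 3).

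ATF4, the factor that induces DDIT3, went the other way. It had 417, 391 and 406 TPM with shLuc and 269.7, 259.6 and 271 with shHDAC1 (-0.60 ± 0.05, limma adjusted p = 8.09e-05). The ratio of DDIT3 to ATF4 went from 0.0238 ± 0.0033 to 0.0572 ± 0.0054 (SD, n = 3), without overlap (p = 0.1 by exact two-sided permutation), and this ratio was chosen after the values were seen. ATF4 is regulated by translation, which these RNA data do not measure. Of the 17 targets of PERK, ATF4 and CHOP, including ATF4 itself, 4 were higher and 6 lower, with a median of -0.19. Under the alternatives 2 to 4 were higher and 5 to 9 lower. ATF3, a stress transcription factor, rose from 25.7 ± 3.08 to 39.9 ± 2.93 TPM (0.62 ± 0.10). NUPR1, a small nuclear stress protein, was at 0.197, 0.333 and 0.321 TPM with shLuc and at 2.46, 1.502 and 2.66 with shHDAC1. It passed the filter only through the shHDAC1 libraries, so its place among the 4 called higher is a description. SLC7A11, the cystine transporter, had 18.9 ± 2.33 and 8.73 ± 0.59 TPM (-1.03 ± 0.12). TRIB3, a pseudokinase induced by ATF4 and CHOP (-0.55 ± 0.08), and BBC3, a pro-apoptotic BCL2 family member (-0.93 ± 0.13), also fell and were picked after their values were seen.

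HERPUD1 (chromosome 16, 56932048 to 56944863, plus strand) had 397, 380 and 407 TPM with shLuc and 293, 270 and 278 with shHDAC1. The groups were far apart, with means of 395 ± 13.8 and 280 ± 11.9 TPM (SD, n = 3), 71.0% of the control. The log2 fold change was -0.49 ± 0.06 (95% interval -0.62 to -0.36, limma adjusted p = 0.000373), and HERPUD1 was called under all 15 alternatives. Of its 19 transcripts 13 were tested, 0 were called, and 5 had groups that did not overlap, all lower, against 11.0% of all transcripts tested. The 2 most abundant, HERPUD1-201 and HERPUD1-203, went from 96.8 ± 8.76 to 73.6 ± 4.76 TPM and from 103 ± 10.3 to 69.0 ± 6.68 TPM (SD, n = 3; limma adjusted p = 0.0857 and 0.052). HERPUD1-210, annotated as a target of nonsense-mediated decay, held 19.1% of the HERPUD1 level with shLuc and 18.2% with shHDAC1, with 75.6 ± 5.19 and 51.1 ± 10.5 TPM. Coding transcripts stood at 69.5% of the control and those with a retained intron at 81.2%, and the latter overlapped between groups.

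Over all 10 genes, 39 transcripts were tested, 1 was called lower (ERN1-201) and 1 higher (DDIT3-202, with the limit given for it). The background was 1.59% called lower and 1.99% called higher of all transcripts tested, and these splits also moved with the scaling (822 higher and 654 lower, 715 and 972 after median centring, 807 and 724 after quantile normalization). The share of each transcript within its gene was compared for 40 transcripts by exact permutation, of which 0 could pass, since p cannot go below 0.1. The smallest adjusted p was 0.857.

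The promoters of XBP1 and HERPUD1, 2 of the 3 genes that fell, hold the element through which ATF6 and XBP1 act on ER chaperone genes, and are shown for that reason. They are the 250 bases before the start of transcription from RefSeq (GRCh38.p14), 5′ to 3′ on the strand of the gene, with the match in capitals.
XBP1 promoter, chr22:28800570-28800819, minus strand: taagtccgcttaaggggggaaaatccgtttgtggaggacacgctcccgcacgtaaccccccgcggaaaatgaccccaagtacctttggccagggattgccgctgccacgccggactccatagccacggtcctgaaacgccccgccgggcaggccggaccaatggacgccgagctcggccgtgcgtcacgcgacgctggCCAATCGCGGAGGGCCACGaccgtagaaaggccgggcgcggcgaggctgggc
HERPUD1 promoter, chr16:56931892-56932141, plus strand: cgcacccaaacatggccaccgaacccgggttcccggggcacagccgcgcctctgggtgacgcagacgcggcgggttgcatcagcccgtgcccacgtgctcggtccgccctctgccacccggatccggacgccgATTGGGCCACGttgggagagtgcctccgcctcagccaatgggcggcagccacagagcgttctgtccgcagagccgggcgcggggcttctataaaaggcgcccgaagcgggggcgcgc
In XBP1 the match is the ER stress response element (ERSE), CCAAT, any 9 bases and CCACG, and it starts 52 bases before the start of transcription. XBP1 has another RefSeq start, with its 250 bases at chr22:28800078-28800327, and no match was found there. In HERPUD1 it is the second form of the element (ERSE-II), ATTGG, any base and CCACG, which starts 117 bases before it. Both strands of windows from 250 bases before to 50 after a start were searched. ERSE was found in 27 of 35116 windows (0.0769%) and ERSE-II in 19 (0.0541%). The XBP1 response element TGACGTGG was found in 256 windows (0.729%) and in 0 of those of the 10 genes. ERN1, DDIT3 and the other 6 genes held 0 exact matches to any of the 3 in this window. Only exact matches were searched, so a form that differs in a base was not counted. The DDIT3 promoter holds CCAAT, 9 bases and CCACT, which differs from ERSE in the last base only. The other genes were not searched for such near matches. Of the 10 genes and the pathway lists, 10 genes held ERSE or ERSE-II, and 8 of these were called lower and 0 higher, from -0.61 for HSP90B1 to 0.03 for SERP1. The lists were made of ER stress genes, so this count describes them only.

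Genes whose log2 values followed XBP1 closely over the 6 libraries, among 7848 with a mean of 10 TPM or more, were XRN2 (Pearson r = 0.996), CTSC (0.996), TARS (0.996) and BNIP2 (0.995). These correlations describe 6 points that fall into 2 groups, which share library size and scaling, and carry no test. XRN2, a nuclear exonuclease that acts in the termination of transcription, had 52.4, 60.1 and 53.8 TPM with shLuc and 44.7, 42.1 and 39.7 with shHDAC1. As with XBP1, shLuc library 2 was highest and shHDAC1 library 3 lowest. None of the 4 is one of the 10 genes or in a pathway list.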

How the data were processed

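Total RNA of RPMI 8226 cells was sequenced after DNase treatment and NEBNext Ultra RNA library preparation, per the labels' protocols. The authors deposited TPM values for each Ensembl transcript and library, per the file headers, with a sum of 1000000 in each. Named without role or version in the submitters' processing notes are hg19, DESeq and STAR. What computed the TPM, on which annotation and with or without strand, is not stated in the sources used here. A TPM is a share, so a rise of some transcripts lowers others.

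Of 173259 transcripts, 159239 (91.9%) matched GENCODE 29, holding 97.3% (shLuc) and 96.9% (shHDAC1) of the TPM, and TPM were summed per gene. Coordinates are from GENCODE 29 and RefSeq on GRCh38, since the deposited tables give none. Groups came from the sample titles. Genes were tested on log2(TPM + 1) in limma 3.58.1 (R 4.3.3) with a variance trend, requiring 1 TPM in 3 or more libraries. The fit was also run on simulated data with independent noise and far fewer changed genes than were called here. That run gives no error rate for these data. Shares and ratios used exact two-sided permutation over libraries in scipy 1.17.1. Tables were handled with Python 3.11.15, numpy 2.4.6 and pandas 2.3.3, and drawn with matplotlib 3.10.9.

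The members and gene lists were chosen with earlier results of these data known. Named genes were the 10 members and their transcripts at 1 TPM or more, up to 2 genes called in each direction per list with the smallest p, HDAC1, and the 5 genes most like XBP1 with a mean of 10 TPM or more, of which 1 is not reported here. All other list genes named were picked after their values were seen. Alternatives were median centring, quantile normalization, rescaling without immunoglobulin, histone and mitochondrial genes, no filter, a mean of 5 TPM or more, a pseudocount of 0.1 or 5, a block on replicate number, coding transcripts only, and each library left out in turn. Sums of the XBP1 forms as features were added after the data were seen.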

Additional observations from a re-analysis of the deposited data

How the results depend on the processing

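ERN1, HERPUD1 and DDIT3 kept their direction and call under all 15 alternatives, and XBP1 kept its direction under 15 and its call under 11. Leaving out each library in turn, 2170 to 3057 genes were called (3226 with all libraries), 3 to 5 of the 10 genes (4 with all), and the difference in spliced share lay between -12.1 and -6.02 points. Transcript calls were less stable than gene calls: 1476 with all libraries, 679 without the filter on low values, where many more transcripts enter the adjustment, and 248 to 457 without 1 library. The sign of small differences turned for ATF6B (median centring -0.054, quantile normalization -0.086, -0.056 to 0.12 without 1 library) and MBTPS2 (-0.0074 and -0.042 under the 2 scalings). Quantile normalization also turned PPP1R15A (-0.022), XBP1-201 (0.031) and the unspliced sum (0.028). XBP1-203 turned with median centring (-0.075), quantile normalization (-0.059) and a pseudocount of 5 (-0.00059), and ranged from -0.11 to 0.13 without 1 library. Without shHDAC1 library 2, XBP1-201 (-0.11 to 0.029 without 1 library), XBP1-205 (-0.61 to 0.033) and the unspliced sum (-0.12 to 0.017) turned. Where no cause is given, it was not tested. HGSNAT, ERN1-201 and the list genes PPP1CA, NCK1 and SEC61B were called under fewer than 10 of their alternatives. DDIT3-202 was called under 0 of its 10, with a limma adjusted p between 0.0501 and 0.148. The replicate numbers in the titles are shared by the groups, but same-numbered libraries did not all deviate together (correlations of deviations from group means -0.10, 0.18 and 0.03), and shLuc libraries 1 and 3 correlated best with other numbers. With the replicate number as a block, 3243 genes, 208 transcripts and the same number of the 10 genes (4) were called. Depth is unknown, so the counting error of low values, such as those of PPP1R15A, DDIT3-202 and TAPBP, cannot be given.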
